A study of Mus musculus with 24 samples.

Results

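Cathepsins are the proteases that break down proteins inside lysosomes, and in the osteoclast they also digest bone outside the cell. The 10 cathepsin genes described here (Ctsa, Ctsb, Ctsc, Ctsd, Ctsf, Ctsh, Ctsk, Ctsl, Ctss and Ctsz) were taken by symbol from a table of 54532 mouse genes, and all 10 passed the filter on low counts, as did 15035 genes in all. The 24 libraries came from bone marrow derived macrophages, which M-CSF keeps alive as macrophages and which M-CSF with RANKL turns into osteoclasts, the multinucleated cells that resorb bone. RNA-seq libraries were made at day 3 and day 5 from cells given M-CSF without RANKL, or given both, with M-CSF at 30 ng/mL and RANKL at 50 ng/mL in the osteoclast medium. No label gives the dose of M-CSF where it was used alone. The control cells were Rosa26-Runx1tg/+, which carry a Runx1 transgene at the Rosa26 locus and no Cre, and are named wild type control in the labels. The other cells were LysM-Cre;Rosa26-Runx1tg/+, which carry that same transgene together with Cre expressed from the myeloid lysozyme gene Lyz2, and are labelled Runx1 over expression. Each of the 8 combinations of genotype, medium and day had 3 libraries, numbered 1 to 3. No label gives the age of the mice or says whether a number is 1 animal, so p-values measure only the spread between these libraries. That spread may be technical, except that number 3 labelled Runx1 over expression differed from the others in sex-linked counts, given below.

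Most cathepsins are made as inactive precursors, travel to the lysosome bound to mannose 6-phosphate receptors or sortilin, and are activated there by acid and by other proteases. Cathepsin K is the exception in bone: the osteoclast secretes it into the sealed acid space under the cell, where it cleaves triple-helical collagen. Ctsk, Ctss, Ctsl, Ctsb, Ctsc, Ctsh, Ctsz and Ctsf encode cysteine proteases of the papain family, Ctsd encodes an aspartic protease, and Ctsa encodes a serine carboxypeptidase. In macrophages cathepsin S trims the invariant chain that guards MHC class II molecules, and cathepsins B and D carry out bulk protein breakdown.

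Ctsk and Ctss are neighbours in head-to-tail order on the plus strand of mouse chromosome 3, with 17423 bases between them, and their transcripts moved in opposite directions with RANKL. Their promoters are therefore shown beside that of Ctsd, a gene of the lysosome that fell with Ctss. Each sequence is the 250 bases before the RefSeq transcription start in GRCm38.p6, read 5′ to 3′ on the gene's strand. The windows are chr3:95498960-95499209 on the plus strand for Ctsk, chr3:95526536-95526785 on the plus strand for Ctss and chr7:142387828-142388077 on the minus strand for Ctsd. Capitals mark the PU.1 core GAGGAA or its reverse complement TTCCTC, and the palindromic E-box CACGTG, the motif bound by the TFE and MITF factors of lysosomal genes.
Ctsk: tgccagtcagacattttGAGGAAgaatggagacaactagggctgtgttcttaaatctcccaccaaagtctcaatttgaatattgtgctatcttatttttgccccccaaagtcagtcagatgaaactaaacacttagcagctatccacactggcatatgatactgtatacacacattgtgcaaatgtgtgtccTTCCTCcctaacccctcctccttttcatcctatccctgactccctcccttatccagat
Ctss: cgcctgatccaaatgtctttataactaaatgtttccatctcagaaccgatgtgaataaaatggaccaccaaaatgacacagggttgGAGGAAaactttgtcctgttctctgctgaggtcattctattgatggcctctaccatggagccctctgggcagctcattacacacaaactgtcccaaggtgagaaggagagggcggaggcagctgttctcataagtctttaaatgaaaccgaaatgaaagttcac
Ctsd: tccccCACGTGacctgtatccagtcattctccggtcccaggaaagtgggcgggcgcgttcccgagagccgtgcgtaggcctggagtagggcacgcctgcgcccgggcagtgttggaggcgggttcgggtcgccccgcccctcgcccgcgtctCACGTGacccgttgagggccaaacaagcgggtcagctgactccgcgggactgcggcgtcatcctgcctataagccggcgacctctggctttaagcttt
The Ctsk window held 2 PU.1 cores and no E-box, the Ctss window 1 PU.1 core and no E-box, and the Ctsd window 2 E-boxes and no PU.1 core. Among 32851 RefSeq windows of this length, 6.021% held the E-box and 23.25% held the PU.1 core on either strand. RefSeq windows were found for 8 of the 10 genes, 9 windows in all since Ctsa has 2, and Ctsl, Ctsf and 1 of the windows of Ctsa held 1 E-box each, while Ctsc held 2 PU.1 cores. The window of Ctsl (chr13:64370521-64370770) and that of Ctsa with the E-box (chr2:164833523-164833772) lie inside the annotated spans of these genes. That of Ctsd lies mostly inside the span of its gene, which ends at base 142388038. That of Ctsf reaches a short way into its own, which starts at base 4855129. The third motif searched, the M-box CATGTG or its reverse complement CACATG, was in 12.25% of windows and in none of the 9. These matches describe letters only and say nothing of binding.

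The libraries held 18975750 to 24268936 counts, apart from 36523995 in number 3 labelled Runx1 over expression at day 5 with RANKL. Runx1 itself did not pass the test between genotypes in any of the 4 comparisons, with log2 differences of 0.12, 0.17, 0.00 and 0.23 in day 3 M-CSF, day 3 RANKL, day 5 M-CSF and day 5 RANKL (adjusted p = 1 in each, edgeR). No source used here says if the gene's counts take in transgene reads. The 4 libraries of number 3 labelled Runx1 over expression carried 542 to 847 Y-linked counts each, and every other library 0 or 1. Counts of Xist, the RNA of the inactive X chromosome, were 2 to 12 in those 4 libraries and 14963 to 28379 in the others. Number 3 of that genotype thus differed in sex from numbers 1 and 2. The labels call all cells osteoclasts, but the 8 osteoclast markers fixed for this check summed to 37.4 to 66.2 counts-per-million (CPM) of the library after TMM scaling in M-CSF alone. With RANKL they summed to 26825 to 46260 CPM, so the M-CSF cells are described here by their medium. At day 3 many cathepsins were high or low in the same library: in M-CSF alone, control number 1 was the highest of its group for 8 of the 10 genes and number 3 the lowest for 9, and with RANKL the number 3 libraries of both genotypes were the lowest for 8. At day 5 number 1 labelled Runx1 over expression was the highest for 9 in M-CSF alone, while in control cells with RANKL the highest library was number 1 for 5 genes, number 2 for 3 and number 3 for 2.

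RANKL parted the 10 cathepsins: Ctsk rose from near absence, Ctsz rose modestly, 6 genes fell, and Ctsa and Ctsf passed the test in 1 comparison each. In control cells at day 3, 2 genes were higher and 6 lower with RANKL, where 29.5% of all tested genes were higher and 29.7% lower (edgeR quasi-likelihood test, Benjamini-Hochberg adjusted p under 0.05 over all tested genes). In the day 3 libraries labelled Runx1 over expression the counts were 3 and 6, beside 29.1% and 30.1% of all genes. At day 5 they were 3 and 6 in control cells (26.4% and 23.1% of all genes) and 2 and 6 in the libraries labelled Runx1 over expression (27.5% and 24.9%). The same 6 genes, Ctsb, Ctsc, Ctsd, Ctsh, Ctsl and Ctss, were lower in all 4 comparisons, and Ctsk and Ctsz were higher in all 4. The median log2 change of the 10 genes was -1.71, -1.67, -0.85 and -0.81 in day 3 control, day 3 labelled Runx1 over expression, day 5 control and day 5 labelled Runx1 over expression, against -0.03, -0.02, 0.03 and 0.03 over all tested genes. In bulk RNA fewer cells of a type and less RNA per cell cannot be told apart.

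**Figure D1:**
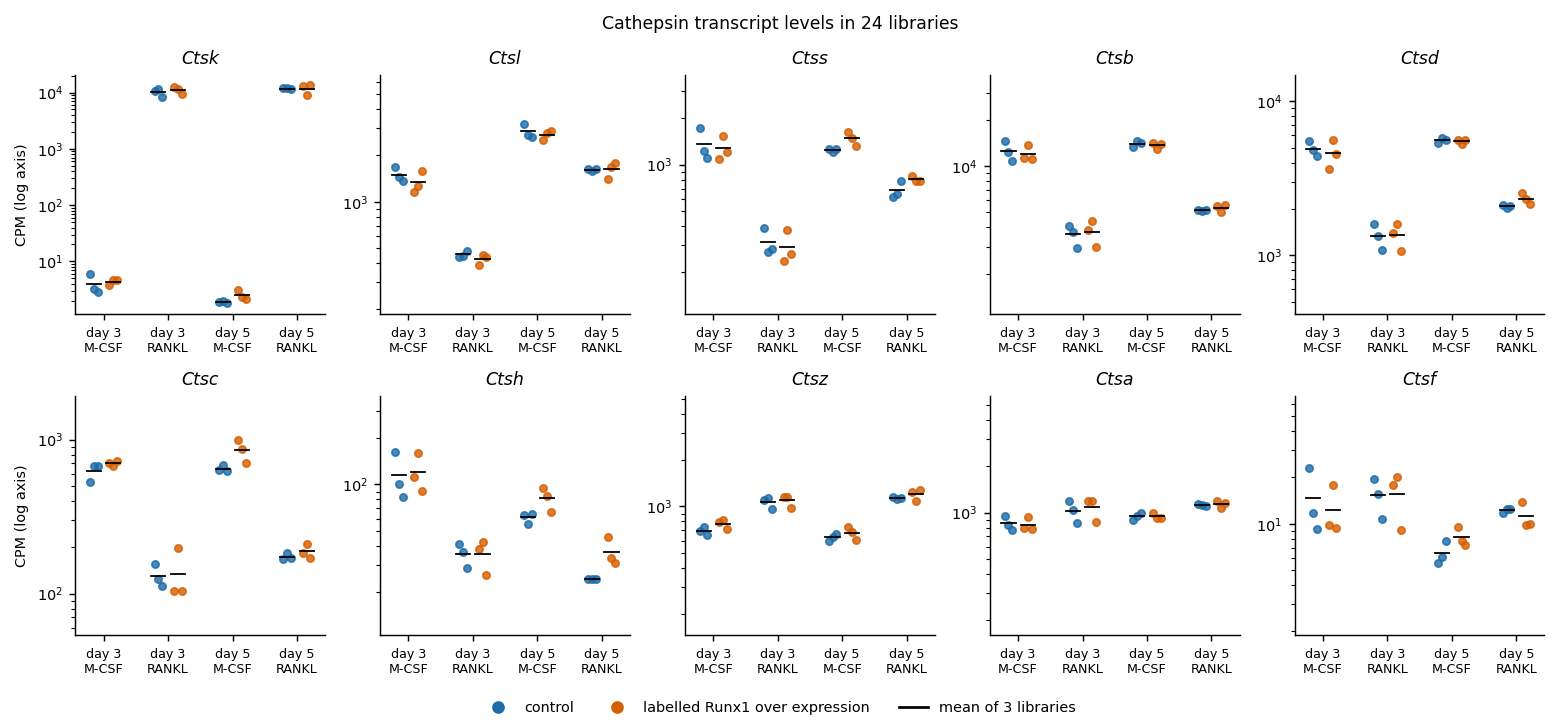
Level of each of the 10 cathepsin transcripts in counts-per-million (CPM, log axis) in day 3 and day 5 libraries in M-CSF alone or with RANKL, 3 libraries a group, blue for control and orange for the libraries labelled Runx1 over expression, with black bars at the mean. Every panel but that of Ctsk spans the same ratio from bottom to top, Ctsk climbs from 1.80 to 5.92 CPM in M-CSF alone to 8232 to 13362 CPM with RANKL, and Ctsl rises from day 3 to day 5 in both media.

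Ctsk (ENSMUSG00000028111, chromosome 3, 95499256 to 95509362 in GRCm38, plus strand, protein coding) is the collagen-digesting cathepsin, and its transcript rose from near absence with RANKL. In control cells in M-CSF alone its 3 libraries stood at 5.92, 3.22 and 2.82 CPM at day 3 and at 1.90, 2.00 and 1.80 CPM at day 5. With RANKL they stood at 10810.5, 11650.4 and 8232 CPM at day 3 and at 11922, 11941 and 11363 CPM at day 5. Every RANKL library thus lay far above every M-CSF library, with nothing between. The libraries labelled Runx1 over expression held 3.74, 4.66 and 4.75 CPM at day 3 and 3.05, 2.30 and 2.13 CPM at day 5 in M-CSF alone. With RANKL they held 12730.5, 11316 and 9524 CPM at day 3 and 12938, 9020.4 and 13362 CPM at day 5, with number 2 the lowest at day 5. The log2 fold change was 11.33 (SE 0.30, adjusted p = 2.44e-16, edgeR) in control cells at day 3, a 2575-fold rise, and 12.59 (SE 0.32) at day 5, a 6161-fold rise. It was 11.32 (SE 0.30) and 12.21 (SE 0.31) in the libraries labelled Runx1 over expression. The M-CSF level rests on 35 to 127 counts a library, the lowest of any member, so the size of the fold depends on those few counts while the direction does not.

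Ctss and Ctsl, which encode endopeptidases, fell with RANKL, and fell less at day 5 than at day 3. Ctss (chromosome 3, 95526786 to 95556403, plus strand) held 1731, 1232 and 1103 CPM in day 3 control cells with M-CSF alone and 388, 272 and 285 CPM with RANKL. At day 5 it held 1263, 1212 and 1268 CPM in M-CSF alone and 617, 649.6 and 781 CPM with RANKL. The groups did not overlap on either day, and the RANKL libraries of day 5 lay above those of day 3. The fall was 4.31-fold at day 3 (log2 fold change -2.11, SE 0.19, adjusted p = 4.47e-09, edgeR) and 1.83-fold at day 5 (-0.87, SE 0.18, adjusted p = 0.000412). The M-CSF values in the libraries labelled Runx1 over expression were 1088, 1540.2 and 1206 CPM at day 3 and 1636, 1480.5 and 1331 CPM at day 5. The RANKL values there were 238, 377 and 264 CPM and then 846, 788 and 785 CPM, again with no overlap between media, and the log2 fold changes were -2.12 and -0.88.

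Ctsl (chromosome 13, 64359337 to 64370890, minus strand) held 1674, 1447 and 1369 CPM in day 3 control cells with M-CSF alone and 439, 447 and 480.3 CPM with RANKL. At day 5 both media were higher, at 3224, 2729 and 2633 CPM in M-CSF alone and 1626, 1596 and 1625 CPM with RANKL. The day 5 RANKL libraries thus reached the level of the day 3 M-CSF libraries while staying below those of day 5. RANKL lowered Ctsl 3.29-fold at day 3 (log2 fold change -1.72, SE 0.12, adjusted p = 1.33e-10, edgeR) and 1.77-fold at day 5 (-0.82, SE 0.12, adjusted p = 5.73e-06). Ctsl in the libraries labelled Runx1 over expression held 1166, 1266 and 1594 CPM against 388, 451 and 436 CPM at day 3, M-CSF alone first, and 2508, 2799 and 2874 CPM against 1414, 1687 and 1786 CPM at day 5. None of these pairs overlapped, and the log2 fold changes were -1.66 (SE 0.12) and -0.74 (SE 0.12). Ctsl shares 1742 exonic bases with Gm47123 on the opposite strand and 395 with Gm49230 on the same strand, both at 0 counts. The part of these overlaps in the level of Ctsl was not tested.

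Ctsb and Ctsd, the abundant proteases of bulk lysosomal breakdown, both fell with RANKL. Ctsd (chromosome 7, 142375911 to 142388038, minus strand) held 5549.5, 4811 and 4446 CPM in day 3 control cells with M-CSF alone against 1590.0, 1325 and 1076 CPM with RANKL. At day 5 it held 5393, 5777 and 5618 CPM against 2113, 2014 and 2105 CPM. No RANKL library came near an M-CSF library, and the fall was 3.71-fold at day 3 (log2 fold change -1.89, SE 0.16, adjusted p = 2.14e-09, edgeR) and 2.69-fold at day 5 (-1.43, SE 0.16). Ctsd in the libraries labelled Runx1 over expression held 3628, 5645 and 4553 CPM against 1399, 1602 and 1070.4 CPM at day 3, and 5639.6, 5283 and 5575 CPM against 2533, 2307 and 2146 CPM at day 5. Number 1 was the lowest M-CSF library there at day 3 and still lay above every RANKL library, and the falls were 3.40-fold and 2.36-fold. Ctsd shares 808 of its 2351 exonic bases with Gm49369 on the same strand, which had 0 counts in every library. The part of this overlap in the level of Ctsd was not tested.

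Ctsb (chromosome 14, 63122462 to 63145923, plus strand), whose product also trims peptides from their carboxyl end, held 14612, 12282 and 10768 CPM in day 3 control cells with M-CSF alone against 4103, 3747 and 2939.5 CPM with RANKL, and 13371, 14478 and 14122 CPM against 5193, 5146 and 5186 CPM at day 5. The libraries labelled Runx1 over expression held 11206, 13698 and 11159.7 CPM against 3853, 4418 and 2979 CPM at day 3, and 14074, 12879 and 13984 CPM against 5475, 5043 and 5589 CPM at day 5. The media did not overlap in any of the 4 pairs. Ctsb fell 3.49-fold and 2.70-fold in control cells at day 3 and day 5 (log2 fold change -1.80 and -1.43, SE 0.14 each, adjusted p = 8.90e-10 and 3.48e-08, edgeR), and 3.21-fold and 2.54-fold in the libraries labelled Runx1 over expression. Ctsb shares 774 exonic bases with Fdft1 on the opposite strand, a gene of sterol synthesis with 222 to 1414 counts a library. No source used here states if strand was used in counting.

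Among the exopeptidases Ctsc and Ctsh fell, Ctsz rose and Ctsa scarcely moved. Ctsc (chromosome 7, 88278085 to 88310888, plus strand) encodes cathepsin C, the dipeptidyl peptidase that activates the serine proteases of granules, and of the 10 genes it had the largest mean fall with RANKL. It held 534, 675 and 674 CPM in day 3 control cells with M-CSF alone against 156, 125 and 112 CPM with RANKL, and 635, 683 and 627 CPM against 167, 184 and 171 CPM at day 5. The falls were 4.79-fold (log2 fold change -2.26, SE 0.20, adjusted p = 3.64e-09, edgeR) and 3.73-fold (-1.90, SE 0.19), with the media far apart. In the libraries labelled Runx1 over expression it held 706, 676 and 729.8 CPM against 104, 196 and 103 CPM at day 3, and 1001, 875 and 704 CPM against 182, 211 and 169 CPM at day 5. With RANKL at day 3 number 2 stood well above the other two, and the falls were 5.23-fold and 4.58-fold. Ctsh (chromosome 9, 90054152 to 90076089, plus strand), an aminopeptidase, held 55.7 to 163 CPM over both days and genotypes in M-CSF alone (median 87.9, 12 libraries) and 24.4 to 45.5 CPM with RANKL (median 32.0). Its falls were 3.24-fold and 2.51-fold in control cells and 3.41-fold and 2.25-fold in the libraries labelled Runx1 over expression, at day 3 and day 5.

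Ctsz (chromosome 2, 174427493 to 174439039, minus strand) encodes cathepsin Z, a carboxypeptidase, and was the only member besides Ctsk that was called higher in all 4 RANKL comparisons. Control cells held 689, 741 and 654 CPM at day 3 in M-CSF alone against 1099.6, 1133 and 967 CPM with RANKL, and 601, 636 and 664 CPM against 1156, 1116 and 1131 CPM at day 5. The libraries labelled Runx1 over expression held 791, 820.4 and 711 CPM against 1156, 1157 and 979.9 CPM, and then 737, 679.7 and 610.0 CPM against 1237, 1081 and 1271 CPM. No pair of media overlapped, and the rises were 1.54-fold and 1.79-fold in control cells (log2 fold change 0.62 and 0.84, SE 0.10 each, adjusted p = 1.06e-05 and 2.55e-07, edgeR) and 1.42-fold and 1.77-fold in the others. Ctsa (chromosome 2, 164832873 to 164841032, plus strand) encodes cathepsin A, which also protects lysosomal β-galactosidase and neuraminidase, and its 12 libraries ran from 767 to 996 CPM in M-CSF alone and from 850.3 to 1197 CPM with RANKL. It was called higher at day 3 in the libraries labelled Runx1 over expression (log2 fold change 0.37, SE 0.12, adjusted p = 0.0135, edgeR), while its libraries there overlapped, and the call was lost when any of 4 of these 6 libraries was left out (number 1 or 3 in M-CSF alone, number 1 or 2 with RANKL, adjusted p = 0.0511 to 0.0851). The other 3 comparisons gave 0.28, 0.24 and 0.27 with adjusted p = 0.0616, 0.108 and 0.0762 (day 3 control, day 5 control, day 5 labelled Runx1 over expression), and each of the 3 passed the threshold when low counts were not filtered (adjusted p = 0.0391, 0.0433 and 0.0318). In a fit of only the groups compared, both day 5 comparisons passed (adjusted p = 0.00286 in control cells and 0.0249 in the others) and the day 3 call was lost (0.0858). In control cells at day 3 it also passed without number 1 in M-CSF alone (0.0328) or without number 3 with RANKL (0.0106), and DESeq2 gave adjusted p = 0.0325. Ctsa shares 495 exonic bases with Pltp on the opposite strand, which had 1025 to 9552 counts a library.

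Ctsf (chromosome 19, 4855129 to 4860912, plus strand), a cysteine protease with a long inhibitory propeptide, had few counts in every group, at 5.59 to 23.0 CPM in M-CSF alone and 9.10 to 20.1 CPM with RANKL. It passed the test in 1 RANKL comparison, day 5 in control cells, at 5.59, 6.07 and 7.78 CPM in M-CSF alone against 11.7, 12.5 and 12.6 CPM with RANKL. These libraries did not overlap, the log2 fold change was 0.92 (SE 0.34, adjusted p = 0.0286, edgeR), and the call was lost without number 1 or 2 in M-CSF alone or number 2 or 3 with RANKL (adjusted p = 0.0603 to 0.111). It was also lost with all libraries kept when low counts were not filtered (0.98, adjusted p = 0.0589, edgeR).

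**Figure D2:**
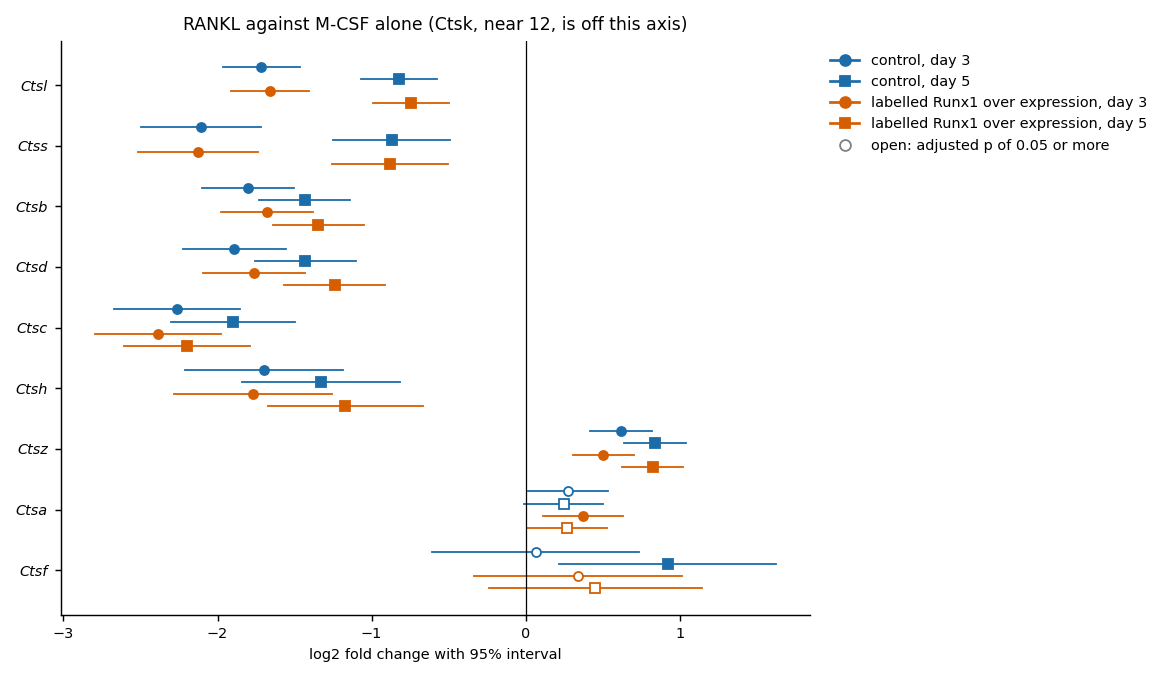
Log2 fold change with RANKL against M-CSF alone for 9 cathepsin genes, with 95% intervals, at day 3 (circles) and day 5 (squares) in control cells (blue) and in the libraries labelled Runx1 over expression (orange), open symbols for adjusted p of 0.05 or more. Ctsk lies off the axis at 11.32 to 12.59, the 6 genes that fell lie left of 0 in every comparison, and the day 5 values of Ctsl and Ctss lie closer to 0 than those of day 3.

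To set the genes beside each other, each level was divided by the exon length in the deposited table, giving CPM per kb, and each gene's share of the 10-gene sum was taken in every library. In M-CSF alone the sum was shared mainly by Ctsd and Ctsb. In control cells at day 3 Ctsd took 33.9% ± 0.794 (SD, n = 3), Ctsb 33.4% ± 0.639, Ctss 15.9% ± 1.69, Ctsz 7.84% ± 0.991 and Ctsk 0.0414% ± 0.0117. With RANKL Ctsk took 73.2% ± 1.99, while Ctsz took 8.09% ± 0.686, Ctsb 6.45% ± 0.383, Ctsd 6.13% ± 0.650 and Ctss 2.54% ± 0.502. The share of Ctsk was thus near 0 in every M-CSF library and the majority in every RANKL library. At day 5 with RANKL it was 68.6% ± 1.05 in control cells, and in the libraries labelled Runx1 over expression it was 74.7% ± 2.22 at day 3 and 66.6% ± 4.14 at day 5.

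**Figure D3:**
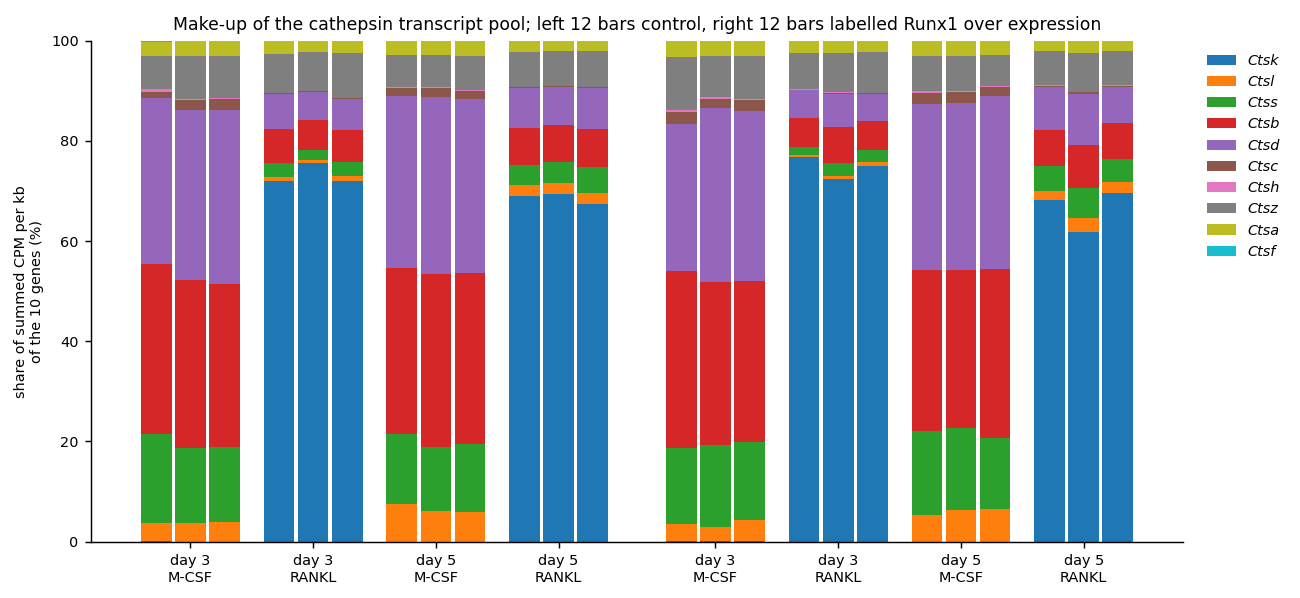
Share (%) of each gene in the summed CPM per kb of the 10 cathepsin genes, 1 bar for each of 24 libraries, control libraries in the left 12 bars. Ctsd and Ctsb make up most of every M-CSF bar, and Ctsk makes up most of every RANKL bar, with group means of 66.6% to 74.7%.

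The order of the levels per kb differed between the media. The deposited length of Ctsf, 1975 bases, is shorter than its 5041 annotated exonic bases, which bears on its place only. With M-CSF alone at day 3 the control order was Ctsd, Ctsb, Ctss, Ctsz, Ctsl, Ctsa, Ctsc, Ctsh, Ctsf and Ctsk, from 2099 ± 239 to 2.64 ± 1.12 CPM per kb, and Ctsd and Ctsb at the top did not differ beyond the spread of their libraries. With RANKL Ctsk was first in all 4 groups, at 6766 ± 1178 and 7766 ± 217 CPM per kb in control cells at day 3 and day 5. At day 3 it was followed by Ctsz, Ctsb and Ctsd in both genotypes, of which neighbours overlapped, and at day 5 by Ctsd, Ctsb and Ctsz. At day 5 in control cells Ctsz lay below Ctsb beyond the spread, and in the libraries labelled Runx1 over expression these overlapped. Gene length bears on this order: with the length of the principal transcript in place of the exon sum, Ctsb took 36.4% and Ctsd 32.0% in day 3 control cells with M-CSF alone, and Ctsk still took 70.7% with RANKL. With that length Ctsb was second in all 4 RANKL groups. It overlapped Ctsz at day 3 in both genotypes, and Ctsd at day 5 in the libraries labelled Runx1 over expression. The gene in second place with RANKL thus depends on the length used.

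The summed level per kb of the 10 genes was 6209 ± 852 CPM per kb in day 3 control cells with M-CSF alone against 9226 ± 1454 with RANKL, and at day 5 these sums were 6822 ± 141 and 11323 ± 150 (SD, n = 3). With the length of the principal transcript the control sums of the media overlapped at day 3 (6389 to 8308 against 7831 to 10544). At day 5 they did not (7771 to 8119 against 11614 to 11896). Without regard to length, the 10 genes held 2.26% ± 0.306 of the scaled library in M-CSF alone and 1.82% ± 0.279 with RANKL at day 3, and 2.60% ± 0.0535 and 2.38% ± 0.0241 at day 5. In control cells the mean share of reads was thus lower with RANKL while the mean level per kb was higher. In the libraries labelled Runx1 over expression the media overlapped in this share, at 2.17% ± 0.273 and 1.94% ± 0.271 at day 3 and at 2.59% ± 0.0850 and 2.45% ± 0.280 at day 5, M-CSF alone first. The exons of Ctsk add up to 1512 bases and those of Ctsb to 6051. Leaving Ctsk out, the other 9 genes in control cells went from 2.26% to 0.798% at day 3 and from 2.60% to 1.20% at day 5.

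Ctsl was the member that rose with time in both media and both genotypes. In control cells in M-CSF alone, 1 gene was higher and 3 lower at day 5 than at day 3 (12.2% and 11.5% of all genes), and in the libraries labelled Runx1 over expression 1 was higher and 1 lower (7.17% and 7.08%). With RANKL 4 genes were higher and none lower in control cells (14.1% and 12.7% of all genes), and 4 were higher and none lower in the libraries labelled Runx1 over expression (17.6% and 15.6%). When libraries were scaled by their totals, 29.5% and 29.0% of the genes called in the M-CSF comparisons were higher, in control cells and in the libraries labelled Runx1 over expression, in place of 51.5% and 50.3%. The rise of Ctsl was 1.91-fold and 2.03-fold in M-CSF alone (log2 fold change 0.94 and 1.02, SE 0.12 each), and 3.55-fold and 3.83-fold with RANKL (1.83 and 1.94, SE 0.12 each), control cells first.

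With RANKL Ctss rose 2.17-fold from day 3 to day 5 in control cells (log2 fold change 1.12, SE 0.18, adjusted p = 0.000189, edgeR) and 2.75-fold in the libraries labelled Runx1 over expression (1.46, SE 0.18), the day 3 and day 5 libraries lying apart in both. Ctsd rose 1.56-fold and 1.72-fold, and Ctsb 1.44-fold and 1.43-fold. In the libraries labelled Runx1 over expression the call for Ctsb was lost without the number 3 set (log2 fold change 0.28, adjusted p = 0.188) and without number 3 of day 3 alone (0.37, adjusted p = 0.0530). In M-CSF alone these 3 genes did not pass the test, with log2 differences of -0.12 to 0.25. Ctsa did not pass in either medium (0.08 to 0.18 over the 4 comparisons), nor did Ctsz (-0.20 to 0.12). Ctsh with RANKL stood at -0.54 in control cells (95% interval -1.05 to -0.03, adjusted p = 0.109), and passed in a fit of the compared groups alone (adjusted p = 0.00899) and with a replicate block on genotype and number (-0.52, adjusted p = 0.0382). Ctsc with RANKL stood at 0.48 in the libraries labelled Runx1 over expression (adjusted p = 0.0561), at 0.51 with that block (adjusted p = 0.0330), and at 0.84 without number 2 of day 3 (adjusted p = 0.000381). In control cells Ctsc with RANKL did not pass the test, but passed in a fit of the compared groups alone (0.41, adjusted p = 0.0195, edgeR). Beside these rises with RANKL the 7 stromal and osteoblast markers summed to 13.8 to 28.2 CPM at day 3 and to 32.5 to 76.1 CPM at day 5 in control cells, and to 11.1 to 22.2 CPM and 28.4 to 293 CPM in the libraries labelled Runx1 over expression, and their part in the result was not tested.

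In M-CSF alone Ctsk fell with time in both genotypes, and Ctsh and Ctsf fell in control cells. Ctsk fell 2.08-fold in control cells (log2 fold change -1.06, SE 0.26, adjusted p = 0.00643, edgeR) and 1.76-fold in the libraries labelled Runx1 over expression (-0.82, SE 0.24, adjusted p = 0.0298). Ctsh fell 1.88-fold and Ctsf 2.26-fold in control cells. These 3 calls in control cells rest on 1 library: without number 1 of day 3 in M-CSF alone, which was the highest of its group for all 3, the log2 differences were -0.65 for Ctsk, -0.57 for Ctsh and -0.69 for Ctsf, with adjusted p = 0.0760, 0.111 and 0.167. The call for Ctsf was also lost without number 1 or number 2 of day 5 (adjusted p = 0.0754 and 0.0562). The fall of Ctsk in the libraries labelled Runx1 over expression was lost without the number 3 set (-0.67, adjusted p = 0.151), and without number 2 or number 3 of either day alone (-0.71 to -0.77, adjusted p = 0.0589 to 0.127). Ctsh stood at -0.56 in those libraries (adjusted p = 0.120), at -0.55 with the block (adjusted p = 0.0379), and at -0.73 without number 3 of day 3 (adjusted p = 0.0474). In M-CSF alone the stromal and osteoblast markers summed to 7.50 to 14.2 CPM at day 3 and to 12.7 to 115 CPM at day 5 in control cells, where Sp7, Bglap and Alpl had 0 to 5 counts a group. They summed to 7.40 to 18.7 CPM and 18.0 to 134 CPM in the libraries labelled Runx1 over expression, and their part in the result was not tested.

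**Figure D4:**
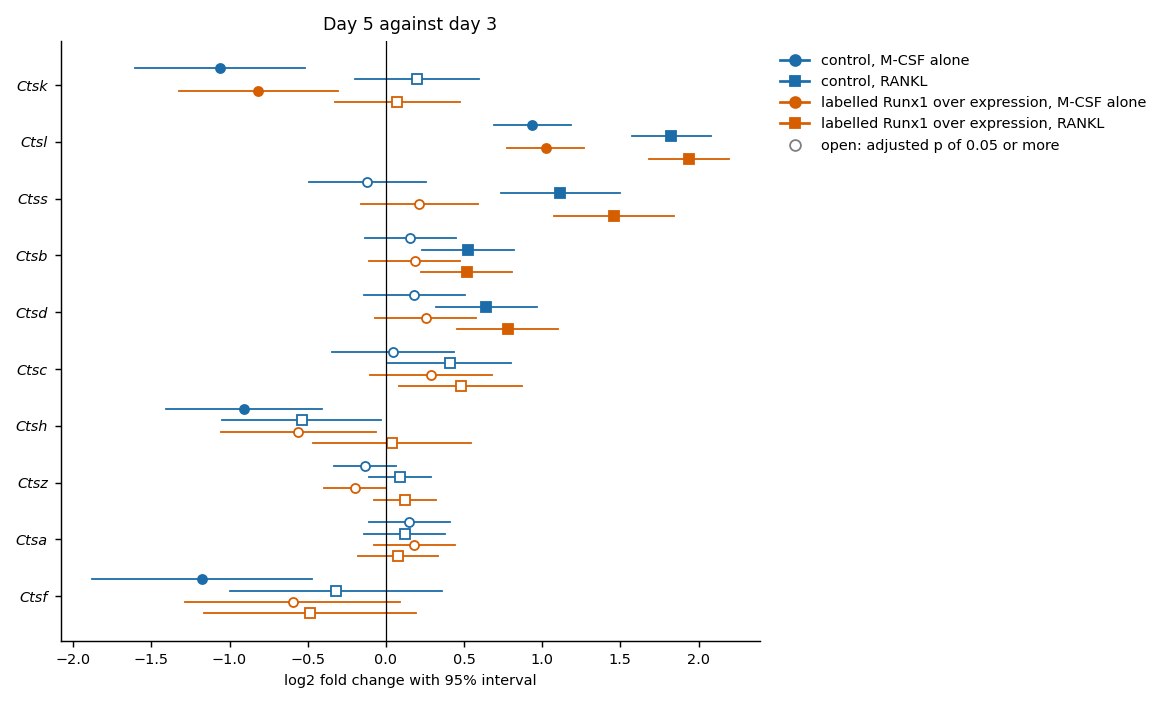
Log2 fold change from day 3 to day 5 for the 10 cathepsin genes, with 95% intervals, in M-CSF alone (circles) and with RANKL (squares), in control cells (blue) and in the libraries labelled Runx1 over expression (orange), open symbols for adjusted p of 0.05 or more. Ctsl lies right of 0 in all 4 comparisons (0.94 to 1.94), and Ctss, Ctsb and Ctsd lie right of 0 past the threshold with RANKL only.

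Whether the response to RANKL differed between days was tested directly, as the day 5 response minus the day 3 response. In control cells 3 of the 10 genes were higher and none lower (7.26% and 6.73% of all genes), and in the libraries labelled Runx1 over expression 2 were higher and none lower (8.09% and 7.13%). The fall of Ctss with RANKL was smaller at day 5 by 1.24 log2 units in control cells (SE 0.26, adjusted p = 0.00212, edgeR) and by 1.25 in the libraries labelled Runx1 over expression (SE 0.26, adjusted p = 0.00188). That of Ctsl was smaller by 0.89 (SE 0.17, adjusted p = 0.000874) and by 0.92 (SE 0.17, adjusted p = 0.000631). The rise of Ctsk was larger at day 5 by 1.26 in control cells (SE 0.32, adjusted p = 0.0114), and by 0.83 with adjusted p = 0.0538 when number 1 of day 3 in M-CSF alone was left out. In the libraries labelled Runx1 over expression it was larger by 0.89 (SE 0.31, adjusted p = 0.0582), and the call was gained with a replicate block on genotype and number (0.89, adjusted p = 0.0455), with library totals (0.99, adjusted p = 0.0229), with DESeq2 (adjusted p = 0.0430) or without number 2 of day 5 with RANKL (1.05, adjusted p = 0.0301). Since the RANKL level of Ctsk differed between days by only 0.20 and 0.07 log2 units, neither past the threshold, these differences lie mostly in its few M-CSF counts. The response of Ctsb, Ctsd, Ctsc, Ctsh, Ctsz, Ctsa and Ctsf did not pass the test in either genotype, at -0.11 to 0.86 log2 units. Ctsd passed it in the libraries labelled Runx1 over expression when number 1 of day 3 in M-CSF alone was left out (0.67, adjusted p = 0.0405). With libraries scaled by their totals, 67.2% of the genes called in either genotype had a higher response at day 5, in place of 51.9% and 53.1%, and 40.8% did in the libraries labelled Runx1 over expression without the number 3 set.

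None of the 10 cathepsins passed the test between genotypes. In each of the 4 comparisons 0 of 10 were called, where 0.0% of all genes were higher and 0.0% lower, and adjusted p was 0.778 or more. At an unadjusted p under 0.05 the members numbered 0, 0, 1 and 1 (day 3 M-CSF, day 3 RANKL, day 5 M-CSF, day 5 RANKL), all genes numbered 530, 258, 948 and 457, and DESeq2 called 3, 1, 18 and 5 of all genes. With the number 3 set labelled Runx1 over expression left out, 35, 6, 110 and 39 genes were called, and 0 and 7 for the genotype difference of the RANKL response at day 3 and day 5. The 2 members were Ctsc at day 5 in M-CSF alone, at 635, 683 and 627 CPM in control cells and 1001, 875 and 704 CPM in the others, and Ctsh at day 5 with RANKL, at 24.4, 24.5 and 24.5 CPM against 45.5, 33.2 and 30.7 CPM. Neither pair of groups overlapped, and the log2 differences were 0.41 (95% interval 0.02 to 0.80) and 0.58 (0.07 to 1.09). In M-CSF alone at day 5, 4 of 10 members (Ctsk, Ctss, Ctsc and Ctsh) did not overlap between genotypes, where 16.8% of all genes did not. At day 5 with RANKL it was 3 (Ctsd, Ctss and Ctsh, 10.3%), at day 3 in M-CSF alone 1 (Ctsc, 5.41%) and at day 3 with RANKL 0 (5.65%).

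The 95% intervals are for 1 gene at a time and cover only the spread between these libraries. For Ctsk with RANKL the difference between genotypes was 0.13 (95% interval -0.27 to 0.53) at day 3 and 0.00 (-0.39 to 0.40) at day 5. Those of Ctsb with RANKL were 0.06 (-0.23 to 0.35) and 0.05 (-0.24 to 0.34). In the order day 3 M-CSF, day 3 RANKL, day 5 M-CSF and day 5 RANKL, Ctsd stood at -0.10, 0.03, -0.03 and 0.16. Ctsl stood at -0.16, -0.10, -0.07 and 0.01. Ctss stood below 0 at day 3 (-0.08 and -0.10) and above 0 at day 5 (0.25 and 0.24). The exopeptidase genes Ctsa and Ctsz lay within -0.03 to 0.16, and Ctsf within -0.25 to 0.33. The difference in RANKL response between genotypes did not pass the threshold for any member (0 of 10 at day 3 and at day 5, 0.0% of all genes in each direction, with 242 and 481 of all genes and 0 members at an unadjusted p under 0.05, and 0 genes called by DESeq2 at either day). Its differences ran from -0.12 to 0.28 log2 units at day 3 and from -0.47 to 0.19 at day 5, with the widest intervals for Ctsf.

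**Figure D5:**
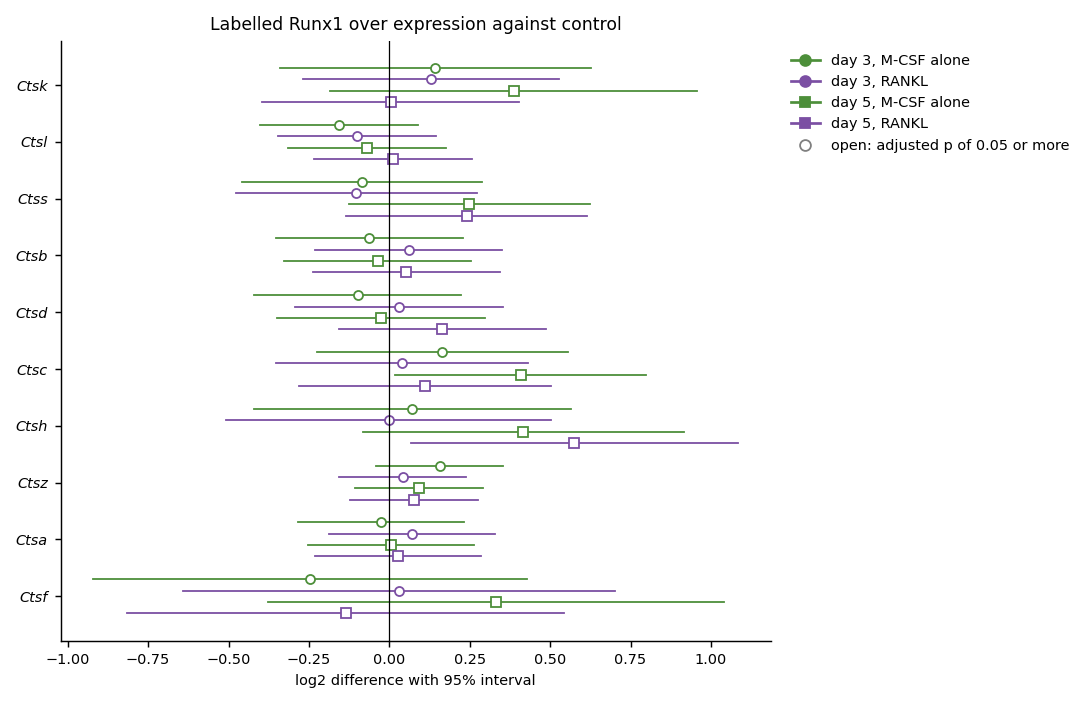
Log2 difference between the libraries labelled Runx1 over expression and control for the 10 cathepsin genes, with 95% intervals, at day 3 (circles) and day 5 (squares) in M-CSF alone (green) and with RANKL (purple), open symbols for adjusted p of 0.05 or more. All symbols are open, and Ctsh at day 5 with RANKL (0.58) lies farthest from 0.

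Of the cystatins and serpins listed as inhibitors of cathepsins, cysteine or other, only a minority could be tested. Of 15 cystatin and serpin genes listed, 6 could be tested, and in each of the 4 RANKL comparisons 4 were higher and 1 lower, where 26.4% to 29.5% of all genes were higher and 23.1% to 30.1% lower (the background of every list below too), with medians of 1.41, 1.14, 0.91 and 0.95 (day 3 control, day 3 labelled Runx1 over expression, day 5 control, day 5 labelled Runx1 over expression). Cstb, which encodes stefin B of the cytosol, rose from 237 ± 14.4 to 720.0 ± 64.6 CPM (SD, n = 3) in control cells at day 3. Cst3, which encodes the secreted cystatin C, rose in all 4 comparisons by 0.44 to 0.73 log2 units. Cst7, which encodes cystatin F, an inhibitor that acts on cathepsin C, rose as well but stood at 0.57 CPM in M-CSF alone and 3.64 CPM with RANKL in control cells at day 3. Serpinb6a, a serpin of the cytosol, was the member that fell, by 1.14 to 1.51 log2 units.

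Of 6 activators and partners, 1 was higher and 4 were lower at day 3 in both genotypes, and 1 was higher and 1 lower at day 5. Lgmn, which encodes legumain, a protease that processes cathepsins B, H and L, fell by 2.58 to 2.64 log2 units in the 4 comparisons, from 1349.7 to 216 CPM in control cells at day 3. Glb1, the β-galactosidase that cathepsin A protects, rose by 0.67 to 1.19. Psap, whose product carries cathepsin D and feeds the saposins, fell by 1.07 and 1.00 at day 3 and gave -0.38 and -0.47 at day 5, below the threshold.

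All 12 genes for sorting to the lysosome could be tested, and 5, 5, 4 and 4 were higher and 7, 6, 5 and 6 lower in the same 4 comparisons (26.4% to 29.5% of all genes higher, 23.1% to 30.1% lower). Both mannose 6-phosphate receptors rose: M6pr by 0.95 to 1.05 and Igf2r by 1.15 to 1.79 log2 units. Gnptab, the enzyme that makes the mannose 6-phosphate tag, rose by 2.01 to 2.96. Sort1, which encodes sortilin, fell by 2.14 to 3.87, and the lysosomal membrane genes Lamp1, Lamp2 and Scarb2 fell by 1.04 to 2.39. In MHC class II processing 9 of 10 genes could be tested, with 3, 4, 1 and 2 higher and 2 in each comparison lower, beside the same shares of all genes. Ifi30, the lysosomal thiol reductase, rose by 2.17 to 2.71, and H2-DMa, the peptide exchanger, fell by 1.55 to 2.63. Dendritic markers summed to at most 1.77 CPM in M-CSF alone and to 2.78 to 14.0 CPM with RANKL (6 markers), and their part in the result was not tested.

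Among 7 transcription factors of lysosome and osteoclast genes 3 were higher and 2 lower in each comparison. Nfatc1, the main regulator of the osteoclast, rose by 2.41 to 3.19 log2 units, Spi1, which encodes PU.1, by 0.79 to 1.30, and Tfec by 0.44 to 1.25. Irf8 fell by 2.82 to 3.12 and Tfe3 by 0.76 to 0.99, and Mitf and Tfeb did not pass the test. Of 13 further cathepsin genes only Ctse, Ctsg, Ctso and Ctsw could be tested, and Ctso, a papain-family member, fell from 61.1 to 25.5 CPM in control cells at day 3 and by 1.26 to 1.37 log2 units in the 4 comparisons.

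The genes most like the extreme members were found by Pearson's r of log2 CPM over the 24 libraries among 10511 genes, given as a description since the libraries share their medium. Those nearest to Ctsk were Acp5 (r = 0.9992), Oscar (0.9981), Siglec15 (0.998), Sdc1 (0.998) and Spns2 (0.9977). Acp5, which encodes the tartrate-resistant acid phosphatase of osteoclasts, had means of 9.19 and 7389.9 CPM in M-CSF alone and with RANKL in control cells at day 3. Those nearest to Ctsc were Cysltr1 (0.9948), Itgam (0.9937), Fli1 (0.9919), Tlr4 (0.9915) and Fgd4 (0.9904). Itgam, which encodes the CD11b integrin chain of myeloid cells, had means of 343 and 84.6 CPM in the same groups.

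Macrophage markers fell beside the 6 cathepsins that fell. Of 8 such genes, Lyz2 among them, 6, 6, 7 and 7 were lower with RANKL in the 4 comparisons, and their sum went from 23735 to 34795 CPM in day 3 control cells with M-CSF alone to 5059 to 8351 CPM with RANKL. Cd68, a lysosomal glycoprotein of the list, was higher at day 3 in both genotypes by 0.29 and 0.39 log2 units. All 8 osteoclast markers were higher in all 4 comparisons, beside the rise of Ctsk. Neutrophil markers summed to 36.8 to 129 CPM over all groups (8 markers), and 4, 5, 4 and 1 of the 7 tested were lower with RANKL (day 3 control, day 3 labelled Runx1 over expression, day 5 control, day 5 labelled Runx1 over expression). Pf4, which encodes platelet factor 4, fell by 3.46, 3.52, 4.17 and 3.58 log2 units in the same comparisons, from a mean of 377 to 34.3 CPM in control cells at day 3 and from 1494 to 82.8 CPM at day 5. It is 1 of 5 erythroid and megakaryocyte markers, of which 2 could be tested. With RANKL 1 of these was higher and 1 lower at day 3 in control cells. At day 3 labelled Runx1 over expression and at day 5 in control cells, 0 were higher and 1 lower. Lymphoid markers summed to at most 0.746 CPM (6 markers) and mast cell markers to at most 3.12 CPM (5 markers, Mcpt4 and Tpsb2 at 0). The part of a change in cell make-up in the cathepsin levels was not tested.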

How the data were processed

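RNA-seq libraries were made from 250 ng of RNA with a TruSeq kit, per the labels' protocols. The authors deposited 1 table of raw counts per gene with gene positions and lengths, made with STAR and DESeq2 on GRCm39 per the submitters' processing notes, which give no versions. Of 54409 gene IDs also in GENCODE M21, 98.3% had the position of that GRCm38 annotation, so positions are given in GRCm38.

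The 15035 genes that passed edgeR's filterByExpr (27.6% of 54532) were scaled by TMM and fitted in 1 model of 8 groups with edgeR 4.0.16 (R 4.3.3, limma 3.58.1). The quasi-likelihood test was run for 16 contrasts, with Benjamini-Hochberg adjustment over all genes tested and a threshold of 0.05. SEs are the log2 fold change over the square root of F, and every adjusted p is from this fit unless another fit or DESeq2 1.42.0 is named. The script was tested on simulated data. The genes named are the 10 members, the 5 genes most like the members with the largest mean rise and fall with RANKL (average log2 CPM of at least 1, pseudocount 0.5 CPM), and genes of lists whose role is clear. The members and lists were chosen with earlier results of these data known. The alternatives were DESeq2, RLE factors, library totals, no filter, replicate blocks, only the groups compared, other transcript lengths, and libraries left out.

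No pair of replicates agreed within counting noise (chi-square per degree of freedom of 3.37 or more), so all 24 were kept. Between the media at day 5 labelled Runx1 over expression, libraries sharing a number deviated together in all 3 pairs (correlations 0.21, 0.166 and 0.369). A replicate block changed no call of a member there. The same correlations at day 3 were 0.324, 0.098 and 0.31 in control cells and 0.077, 0.281 and 0.313 labelled Runx1 over expression. In control cells at day 5 they were 0.042, 0.113 and 0.186. The lowest count of a member in a library was 35. Promoters are from RefSeq.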

Additional observations from a re-analysis of the deposited data

Results flagged for a closer look

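The response to RANKL differed between day 5 and day 3 for 3 cathepsins in control cells and for 2 in the libraries labelled Runx1 over expression, beside 7.26% and 8.09% of all genes with a higher response at day 5, by the test of the difference itself (edgeR quasi-likelihood test, adjusted over all genes). In control cells the difference was 1.26 log2 units for Ctsk, 0.89 for Ctsl and 1.24 for Ctss. In the libraries labelled Runx1 over expression it was 0.92 for Ctsl and 1.25 for Ctss. For Ctsl and Ctss a fall grew smaller, and for Ctsk a rise grew larger, the latter beside M-CSF levels of 1.80 to 5.92 CPM. Without number 1 of day 3 in M-CSF alone the difference for Ctsk in control cells was 0.83, and its call was lost (adjusted p = 0.0538).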

How the results depend on the processing

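No member changed direction while called, under any alternative. Of the values for single genes, 28 gained and 28 lost the threshold, of which 6 and 19 did so when 1 library was left out. With library totals in place of TMM, the members with a higher response at day 5 labelled Runx1 over expression went from 2 to 5, and the median of all genes shifted by -0.103 (day change in M-CSF alone, control) and by 0.1035 and 0.1027 (difference of responses, control and labelled Runx1 over expression). The members lower at day 5 in M-CSF alone, labelled Runx1 over expression, numbered 1, and 2 with library totals, 0 without the filter, 0 in a fit of only the groups compared, 0 without the number 3 set and 0 to 1 with 1 library left out. In control cells they numbered 3, with 4 with library totals, 2 without the filter, 1 in a fit of only the groups compared and 0 to 3 with 1 library left out. The members lower at day 5 with RANKL in control cells went from 0 to 1 in that fit. The cause was not tested. With the length of the longest transcript, then that of the principal transcript (added after seeing the data), the share of Ctsk with RANKL was 70.8% and 70.7% at day 3 and 66.0% and 65.9% at day 5 in control cells, and 72.3% and 72.1% at day 3 labelled Runx1 over expression.

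The labels do not say what a number marks. Deviations from the group means of libraries that share a number correlated over 0.1 in 15 of 36 pairs within a genotype (-0.066 to 0.369) and in 11 of 48 across genotypes (-0.121 to 0.461). Within the number 3 set labelled Runx1 over expression, which alone carries Y-linked counts above 1, all 6 did (0.159 to 0.369). With a replicate block on genotype and number, the members lower at day 5 numbered 2 in M-CSF alone labelled Runx1 over expression and 1 with RANKL in control cells, and 4 single values gained the threshold. With a replicate block on the label number, no genotype call of a member changed, and over all genes the calls went from 0 to 1, 0, 3 and 1 (day 3 M-CSF, day 3 RANKL, day 5 M-CSF, day 5 RANKL). Depth limits Ctsk in M-CSF alone, with 35 to 127 counts a library.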
